A study of Macaca mulatta with 24 samples.

Results

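Cytosolic ribosomal protein genes were followed across the motor and prefrontal neocortex of rhesus monkeys (Macaca mulatta). They were chosen by symbol, as probe sets whose single gene symbol begins with RPL or RPS and a number, without the RPS6K kinases, or is RPLP0, RPLP1, RPLP2 or RPSA. The choice used no measured value. It gave 69 of the 52766 probe sets on the array, naming 41 of 14132 genes. Of these, 56 probe sets naming 38 genes were among the 26383 bright enough to be tested.

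The tissues were the forelimb part of primary motor cortex (M1), dorsal premotor cortex (PMd), ventral premotor cortex (PMv) and prefrontal area 46 (A46), each dissected by sulcal landmarks from the left and right hemispheres of 3 adolescent animals. Animals 1 and 2 were males of 2.7 and 2.6 years and animal 3 was a female of 2.7 years, so sex cannot be told apart from the single female. All had been group-caged without experimental treatment, and all were perfused with heparinised saline under pentobarbital before dissection. Each of the 24 pieces was hybridised to 1 Affymetrix Rhesus array, which gives 6 arrays per area and 8 per animal. Values are log2 intensities, differences are differences of log2 area means with the standard error (SE) from limma, and a probe set was called when its Benjamini-Hochberg adjusted p over all 26383 tested probe sets was under 0.05.

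The cytosolic ribosome consists of a large subunit, which joins amino acids, and a small subunit, which reads the mRNA. Each is built of ribosomal RNA and of proteins named RPL and RPS. The acidic proteins RPLP1 and RPLP2 form a stalk on the large subunit that recruits translation factors. The mRNAs of these proteins begin with a 5′ terminal oligopyrimidine tract, through which the mTOR pathway adjusts their translation together. Neurons keep ribosomes in the cell body and also in dendrites, where proteins are made near synapses. Ribosomal protein genes have many processed copies in primate genomes, so a probe set may also bind transcripts of near-identical copies, and levels of single genes carry that uncertainty.

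Among the tested genes, 21 encode proteins of the large subunit or its stalk and 12 encode proteins of the small subunit. The other 5 are the paralogs RPL22L1, RPL26L1, RPL36AL and RPL7L1, and RPS19BP1, which encodes a protein that binds RPS19 and is no part of the ribosome. RPL3L, RPL5 and RPS27L had no probe set above the intensity filter, a mean log2 value of 5.62. In all, 13 of the 69 probe sets lay below it. Just outside were probe sets of RPS16 (5.16 and 4.59), RPS28 (4.86) and RPL3L (4.54), and just inside were those of RPL13 (5.66), RPL31 (5.75), RPL22 (6.09) and RPL7L1 (6.54). A further 32 probe sets name a ribosomal protein gene together with other genes and were not members. Of 28 genes listed by name for description, 14 had no member probe set, among them RPLP0, RPSA and RPL3.

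The arrays were alike in overall brightness, with median intensities of 47.9 to 51.6. The PMv left arrays of animals 1 and 2 had the smallest standard deviations of log2 values over tested probe sets, 1.34 and 1.37. The A46 left array of animal 2 followed closely with 1.38. On these PMv arrays the means over the 38 ribosomal protein genes were 10.16 and 10.19. The right PMv arrays of the same animals had 10.34 and 10.35. The M1 left array of animal 3 had the lowest mean, 10.14. Counts of calls that moved by over 1.5 times without these PMv arrays are given with that value. In bulk tissue, fewer cells of a type and less RNA per cell cannot be told apart.

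Averaged over the 38 genes, each represented by its brightest probe set, the level was nearly the same in every area. The mean of both hemispheres for animals 1, 2 and 3 was 10.33, 10.39 and 10.18 in M1. In PMd it was 10.34, 10.36 and 10.23. In PMv it was 10.25, 10.27 and 10.30, and in A46 10.27, 10.27 and 10.31. M1 and PMd held both the highest means, in animals 1 and 2, and the lowest, in animal 3. The area groups therefore overlapped.

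**Figure D1:**
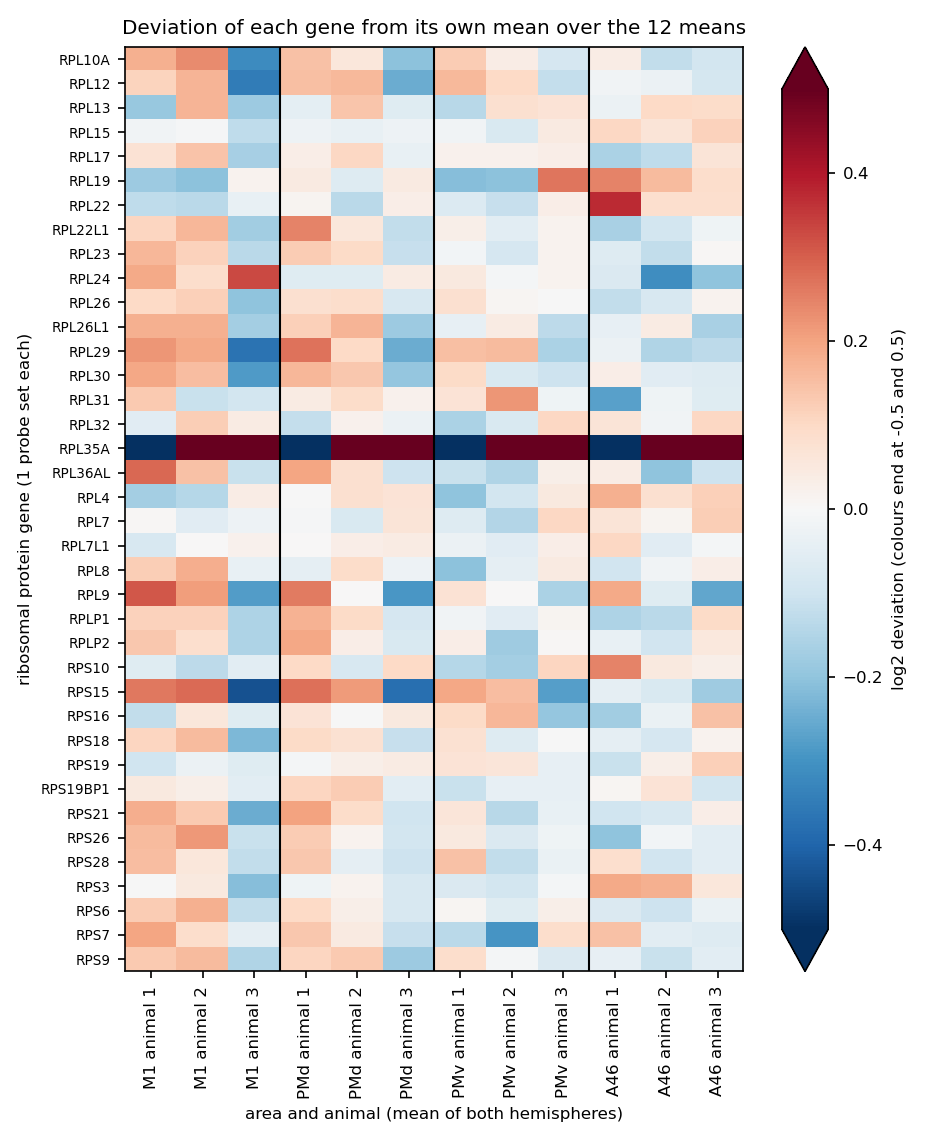
Heat map of 38 ribosomal protein genes (rows, 1 probe set each) in the 12 animal-by-area means of both hemispheres (columns), coloured by the log2 deviation of each gene from its own mean. Most genes are red in M1 and PMd of animals 1 and 2 and blue in the same areas of animal 3, and RPL35A exceeds the colour scale because its level in animal 1 is far below that in animals 2 and 3.

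Few of the 56 probe sets differed between areas. Over all 4 areas, limma's F test called 1, that of RPL24 (adjusted p = 0.0169), against 6.53% of all tested probe sets. The count was 4 without the PMv left arrays of animals 1 and 2 (10% of all), and 34 without animal 3 (29.4% of all). The RPL24 call over all areas was lost in 5 of 15 other settings, namely each hemisphere alone, no animal block, without animal 1 and without animal 2, with an adjusted p of up to 0.616. RPL24, a protein of the large subunit at the interface with the small one, is described first. Area accounted for a median of 20.5% of the variance of a member's 12 means and animal for 25.2%, against 25.9% and 29.4% over all tested probe sets. Over tested probe sets at least as bright as the median member the shares were 36.3% and 32.4%. The member shares also include the members dimmer than that, so the brightness ranges are unlike. More groups take up more variance by chance, so the shares of 4 areas and 3 animals are not directly comparable with each other.

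The first question was how M1 differs from A46. RPL24 was higher in M1, and RPL35A, RPL15 and RPL22 were lower in M1 by 1 or more of their probe sets. Altogether 5 of 56 probe sets were called, 1 higher and 4 lower, naming 4 genes. That is 8.93% of members, against 12.9% of all tested probe sets (7.49% higher and 5.36% lower). Without the PMv left arrays of animals 1 and 2 the count was 11 (17.2% of all), and without animals 1, 2 and 3 in turn it was 1 (6.25%), 0 (1.53%) and 31 (20.5%). At an unadjusted p under 0.05 the shares were 26.8% of members and 25.9% of all. The median difference over the 56 member probe sets was 0.026, against -0.011 over all tested probe sets. After quantile normalisation these medians were 0.00063 and -0.014. With 1 probe set for each of the 38 genes the median was 0.062. It was 0.051 for the 21 genes of the large subunit, 0.062 for the 12 of the small subunit and 0.12 for the 5 paralogs and namesakes.

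RPL24 (MmuSTS.4428.1.S1_at) had log2 intensities in the left and right hemispheres of M1 of 9.10 and 9.15 in animal 1, 9.04 and 8.99 in animal 2, and 9.22 and 9.30 in animal 3. In A46 it had 8.78 and 8.94, 8.64 and 8.60, and 8.73 and 8.73. All 6 M1 arrays lay above all 6 A46 arrays, and the PMd (median 8.88) and PMv (median 8.95) arrays overlapped with those of both areas. The difference was 0.40 (SE 0.068, 1.32-fold higher, adjusted p = 0.00206 by limma), in the same direction in 3 of 3 animals. Area accounted for 77.8% of the variance of its 12 means. Without animal 2 its adjusted p was over the threshold, and the highest adjusted p over 15 other settings was 0.121.

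RPL22, a protein of the large subunit that is also known as an RNA-binding regulator, is covered by 3 tested probe sets. The brightest had 8.99 to 9.20 (median 9.12) on the 6 M1 arrays and 9.23 to 9.69 (median 9.36) on the 6 A46 arrays. The ranges did not overlap, although the gap was narrow. The difference was -0.28 (SE 0.076, 1.22-fold lower, adjusted p = 0.0262). MmuSTS.2436.1.S1_at gave -0.36 (SE 0.11, adjusted p = 0.044), with 5.93 to 6.12 in M1 and 6.11 to 6.63 in A46. The remaining probe set gave -0.13 (adjusted p = 0.524). Animal 1 carried the most of it: the difference of the brightest probe set was -0.51 in animal 1, -0.22 in animal 2 and -0.12 in animal 3. The call of the brightest probe set was lost in 6 of 15 other settings (adjusted p up to 0.306) and that of MmuSTS.2436.1.S1_at in 7 of 14 (adjusted p up to 0.342), both among them without animal 1, without animal 2 and with arrays centred on the median. The paralog RPL22L1 differed by 0.13 (adjusted p = 0.434).

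RPL15, a core protein of the large subunit, was called through its dimmer probe set, which had 10.24 to 10.37 (median 10.34) on M1 arrays and 10.38 to 10.78 (median 10.72) on A46 arrays. Its difference was -0.31 (SE 0.08, 1.24-fold lower, adjusted p = 0.0235). In A46 the arrays of animals 1 and 2 had 10.71 to 10.78 and those of animal 3 10.38 and 10.42. The brighter probe set pointed the same way, with a difference of -0.14 (adjusted p = 0.103). The call of the dimmer one was lost in 5 of 15 other settings (adjusted p up to 0.406), namely with arrays centred on the median, in the left hemisphere, with no animal block, without animal 1 and without animal 2.

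RPL35A, a large-subunit protein whose gene is mutated in some families with Diamond-Blackfan anaemia, was called through MmugDNA.42687.1.S1_at. In M1 this probe set had 10.33 and 10.21 in animal 1, 12.36 and 12.44 in animal 2, and 12.49 and 12.57 in animal 3. In A46 it had 10.88 and 10.79, 12.62 and 12.67, and 12.66 and 12.73. The areas overlapped over all arrays, but within every animal both M1 arrays lay below both A46 arrays. The difference was -0.32 (SE 0.076, 1.25-fold lower, adjusted p = 0.0137). The gene's other tested probe set, MmugDNA.23506.1.S1_s_at, gave 0.074 (adjusted p = 0.634), so the direction for RPL35A rests on 1 probe set. Its call was lost in the same 5 of 15 settings as that of RPL15, with an adjusted p of up to 0.91 in the fit with no animal block.

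**Figure D2:**
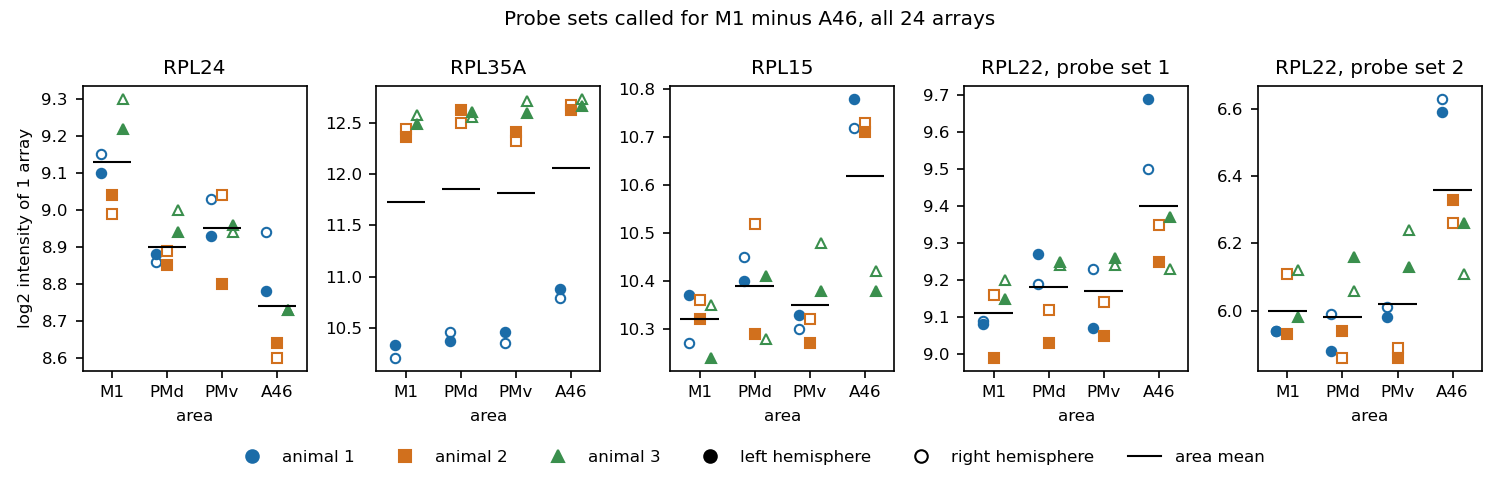
Log2 intensity of the 5 probe sets called for M1 minus A46 on all 24 arrays, by area, with animals as colours and shapes, filled points for left and open points for right hemispheres, and a line at each area mean. RPL24 is highest in M1, the RPL15 and RPL22 probe sets are highest in A46, and the RPL35A values split by animal before they split by area.

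Several further members missed the threshold narrowly, with the same sign in 3 of 3 animals. RPS3, a small-subunit protein at the mRNA entry, had differences of -0.23 (adjusted p = 0.0523) and -0.19 (adjusted p = 0.0535) in its 2 probe sets. RPL4 had -0.22 (adjusted p = 0.0655) and RPL19 -0.29 (adjusted p = 0.0719). The stalk genes gave 0.087 for RPLP1 (adjusted p = 0.617) and 0.042 for RPLP2 (adjusted p = 0.805). RPS6, the small-subunit protein phosphorylated by the S6 kinases, gave 0.13 (adjusted p = 0.288), RPS19 -0.074 (adjusted p = 0.59) and RPS26 0.18 (adjusted p = 0.182). Of the remaining paralogs, RPL36AL gave 0.20 (adjusted p = 0.198), RPL26L1 0.12 (adjusted p = 0.288) and RPL7L1 -0.03 (adjusted p = 0.825), and RPS19BP1 gave 0.013 (adjusted p = 0.931).

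Probe sets of one gene did not always give one answer. Of 13 genes with several tested probe sets, 7 had probe sets that differed in sign or call for M1 minus A46. Over the 12 means the probe sets of RPL32 correlated at 0.921, those of RPS6 at 0.81 and those of RPS3 at 0.782, while those of RPL35A correlated at -0.545, those of RPL26 at -0.344 and those of RPL9 at -0.337. These correlations describe 12 means from 3 animals.

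Cell type markers also differed between M1 and A46. Of 8 tested oligodendrocyte genes, 7 were higher in M1 and 0 lower, with a median difference of 1.23. CNP was the exception, with -0.078. Their summed intensity on the 6 arrays of an area was 19211 to 26432 in M1 and 9984 to 13532 in A46. Of 8 neuronal genes, 4 were higher and 1 lower, with summed intensities of 22225 to 25508 in M1 and 20958 to 22947 in A46. Called higher and lower were 1 and 0 of 8 astrocyte genes, 2 and 1 of 11 microglial genes, 1 and 0 of 5 endothelial and pericyte genes, 0 and 0 of 2 blood genes, and 1 and 0 of 4 meningeal and choroid plexus genes. The log2 ratio of 3′ to 5′ signal of the actin control probe sets is a sign of RNA quality. It was 0.94 ± 0.054 in M1 samples and 1.08 ± 0.11 in A46 samples (SD over n = 3 animals). The same log2 ratio of the GAPDH control probe sets ran the other way, with 0.96 ± 0.039 in M1 and 0.84 ± 0.048 in A46. The part of these differences in the ribosomal protein values was not tested.

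The premotor areas were set against A46 in the same way. For PMd minus A46, limma called 0 of 56 probe sets, against 1.95% of all tested ones, and 9 had an unadjusted p under 0.05 (16.1% of members and 15.5% of all). The smallest p belonged to RPL22 (MmuSTS.2436.1.S1_at, -0.38, adjusted p = 0.0998). RPL15 (dimmer probe set, -0.23) and RPL7L1 (MmugDNA.15401.1.S1_at, -0.23) followed, both with an adjusted p of 0.17. Other tested probe sets of RPL22, RPL15 and RPL7L1 ran up to -0.1, -0.12 and 0.011. For PMv minus A46 the count was again 0, against 1.23%, with 12 at an unadjusted p under 0.05 (21.4% of members and 18.8% of all). Without the PMv left arrays of animals 1 and 2 it was 1 (2.62% of all), and without animal 3 it was 20 (26.6% of all), beside 19 for PMd minus A46 (11.6% of all). RPL7L1, related in sequence to RPL7, had the smallest p in MmugDNA.15401.1.S1_at (-0.33, adjusted p = 0.065), but its 3 tested probe sets ran from -0.33 to -0.025. The dimmer RPL15 probe set (-0.28, adjusted p = 0.104) and RPS3 (-0.20, adjusted p = 0.12) came next. The brighter RPL15 probe set had -0.11. These comparisons and M1 minus A46 share their A46 samples.

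Within the motor areas no member was called. For M1 minus the mean of PMd and PMv, limma called 0 of 56, against 2.16% of all tested probe sets, with 1 at an unadjusted p under 0.05 (12.3% of all). That one was RPL24 (0.21, SE 0.059, adjusted p = 0.109, higher in 3 of 3 animals). For PMd minus PMv it called 0, against 0.00758%, with 0 at an unadjusted p under 0.05 (5.4% of all). The smallest p there was that of RPS19BP1 (0.12, adjusted p = 0.854), and the 95% interval of its difference ran from -0.0097 to 0.26.

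**Figure D3:**
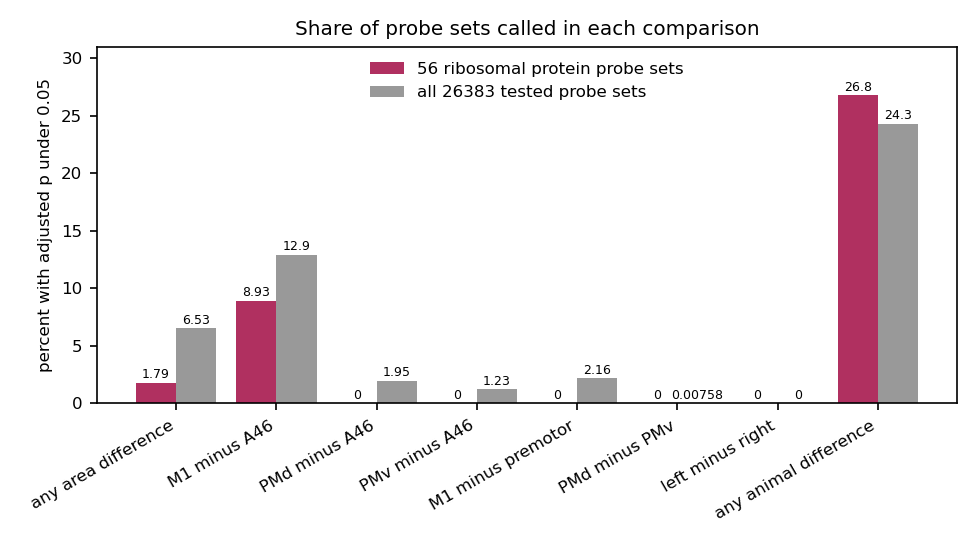
Percent of probe sets with an adjusted p under 0.05 in each of 8 comparisons, as bars from 0 for the 56 ribosomal protein probe sets (left bar) and for all 26383 tested probe sets (right bar). The ribosomal protein share is 8.93% for M1 minus A46 and 26.8% between animals, next to 12.9% and 24.3% of all tested probe sets.

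No member was called between hemispheres. For left minus right, compared within the 12 left and right pairs, limma called 0 of 56 probe sets and 0% of all tested ones, and 6 members had an unadjusted p under 0.05 (10.7% of members and 7.66% of all). The median over the 56 member probe sets was -0.023, against -0.0059 over all tested probe sets and -0.025 over those at least as bright as the median member. RPL9 had -0.14 (adjusted p = 0.48), lower on the left in 10 of 12 pairs, and RPS7 had -0.17 (adjusted p = 0.485), lower in 8 of 12. Both differences were largest in PMv, at -0.26 for RPL9 and -0.36 for RPS7. In the other areas they were -0.12 to -0.079 and -0.13 to -0.075. Left minus right was not fitted without the PMv left arrays of animals 1 and 2. RPS6 had -0.14 in its dimmer probe set (adjusted p = 0.561). RPL29 had 0.075 in MmugDNA.28702.1.S1_at, which is not its brightest probe set (adjusted p = 0.605). An F test of whether the hemisphere difference varies between areas called 0 of 56 members and 0% of all tested probe sets by limma, with 1.79% of members (1 probe set) and 4.22% of all at an unadjusted p under 0.05.

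Differences between the 3 animals came next. The F test over animals, with the 4 areas as repeats, called 15 of 56 probe sets naming 12 genes, which is 26.8%, against 24.3% of all tested probe sets. It called more members than the F test over areas with all animals, but not without animal 3, when 9 were called between the other animals (15.2% of all) and 34 between areas. Without animal 1 it called 7 (16.9% of all) and without animal 2 it called 11 (9.16% of all). This test compares these 3 animals only.

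RPL35A had the widest difference. Its probe set MmugDNA.42687.1.S1_at had 10.21 to 10.88 (median 10.41) on the 8 arrays of animal 1, 12.32 to 12.67 (median 12.47) in animal 2 and 12.49 to 12.73 (median 12.60) in animal 3. No array of animal 1 came near those of the other animals, whose ranges overlapped. Animal accounted for 97.9% of the variance of its 12 means (adjusted p = 1.3e-10). The other tested RPL35A probe set had means of 11.63, 11.51 and 11.53 in animals 1, 2 and 3, and did not show this step. Without animal 1 the call was lost (adjusted p = 0.178).

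RPL13, another large-subunit protein, was called in 3 of its 4 tested probe sets, but in unlike patterns. MmugDNA.31034.1.S1_at had means of 8.61, 8.65 and 8.16 in animals 1, 2 and 3 (adjusted p = 4.55e-05). MmugDNA.37060.1.S1_at had 9.78, 9.60 and 9.49 (adjusted p = 0.0131), and MmugDNA.42536.1.S1_s_at had 10.34, 10.56 and 10.42 (adjusted p = 0.0369). Animal 3 was lowest in the first and second of these, and animal 1 in the last.

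RPL9 had means of 11.13, 10.96 and 10.67 in animals 1, 2 and 3 (adjusted p = 0.000679), and its other probe set had 10.45, 10.56 and 10.54. RPS15 had 11.19, 11.16 and 10.70 (adjusted p = 0.00158). RPL12 had 11.20, 11.20 and 10.90 (adjusted p = 0.00671). In these brightest probe sets animal 3 was lowest. RPL7L1 went the other way in MmugDNA.15401.1.S1_at, with 7.45, 7.32 and 7.74 (adjusted p = 0.00179). Without animal 3 the calls of these RPS15, RPL12 and RPL7L1 probe sets and of the first RPL13 one were lost, and that of RPL9 passed in all 14 other settings (adjusted p up to 0.0319). The other genes called were RPL29, RPL26L1, RPS28, RPL30, RPL32 and RPL10A.

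**Figure D4:**
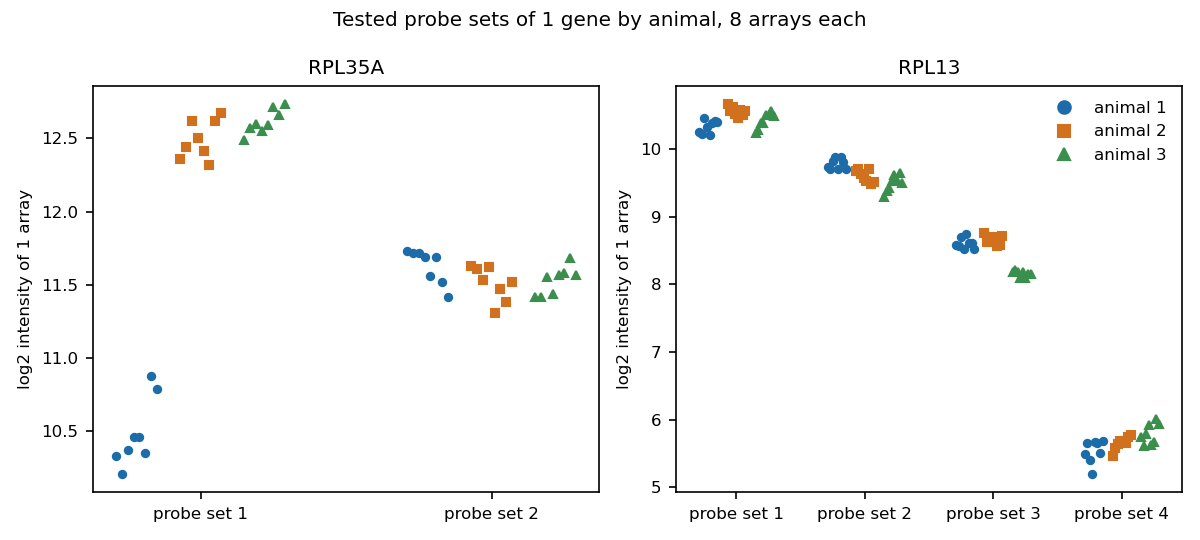
Log2 intensity of each tested probe set of RPL35A (left) and RPL13 (right) on all 24 arrays, with the 8 arrays of each animal side by side in the order M1, PMd, PMv, A46. Animal 1 is about 2 log2 units below the others in RPL35A probe set 1 and level with them in probe set 2, and animal 3 is lowest in RPL13 probe set 3.

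The difference between M1 and A46 was then read in each animal. M1 minus A46 was positive for 27 of 38 genes in animal 1, 27 in animal 2 and 4 in animal 3, with medians of 0.14, 0.19 and -0.14. Over all tested probe sets the medians were -0.017, -0.0064 and -0.0022. Positive were 46.5%, 48.7% and 49.5% of these, beside 71.1%, 71.1% and 10.5% of the 38 genes. PMd minus A46 was positive for 26, 30 and 5 genes (68.4%, 78.9% and 13.2%), with medians of 0.13, 0.11 and -0.097. Of all tested probe sets 48%, 51.9% and 51.5% were positive there. PMv minus A46 was positive for 22, 19 and 18 genes (57.9%, 50% and 47.4%), with medians of 0.063, -0.0019 and -0.019. The shares of all tested probe sets were 40.2%, 46.1% and 53.4%. M1 and PMd of animal 3 thus pointed away from those of animals 1 and 2, and its A46 arrays are shared by both comparisons.

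An F test asked, for each area minus A46, whether the 3 animals differ, with the hemispheres as the only repeats (12 residual degrees of freedom). It was added after the animals' values had been seen. For M1 minus A46 it called 5 of 56 members, against 0.534% of all tested probe sets, for PMd minus A46 0 (0.318%) and for PMv minus A46 5 (10.5%). At an unadjusted p under 0.05 the shares of members were 41.1%, 32.1% and 25% for M1, PMd and PMv, beside 11.5%, 10.7% and 32.7% of all. The M1 count was not stable. It was 0 when each array was centred on its median (0.178% of all), 0 without the intensity trend (0.307%), and 0 to 4 when any 1 of the 12 arrays of M1 and A46 was left out (0.0379% to 0.591%). It was 16 after quantile normalisation (1.47%) and 18 with the spread of each array as a covariate (2.52%). Without the PMv left arrays of animals 1 and 2 it was 13 for M1 (1.84%), 4 for PMd (1.11%) and 2 for PMv (3.5%). Hemispheres of one animal are not independent animals, so the test says nothing of other monkeys.

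The stalk gene RPLP1 shows the pattern. In M1 it had 11.73 and 11.68 in animal 1, 11.78 and 11.65 in animal 2, and 11.43 and 11.45 in animal 3. In A46 it had 11.45 and 11.43, 11.44 and 11.49, and 11.75 and 11.64. M1 lay above A46 in animals 1 and 2 and below it in animal 3 (adjusted p = 0.0454 by limma's F test). RPS15, a small-subunit protein near the decoding site, had differences of 0.31, 0.36 and -0.26 (adjusted p = 0.0231). The others called were RPL29 (adjusted p = 0.0243), RPL26 and RPL17 (both adjusted p = 0.0454). Other tested probe sets of RPS15, RPL29 and RPL26 were not called. That of RPS15 had 0.19, 0.15 and 0.11 in animals 1, 2 and 3, and that of RPL26 had -0.14, 0.013 and 0.017. Those of RPL29 spanned 0.0064 and 0.13 from the lowest to the highest animal. RPL24 kept one sign in all 3 animals, and so did several other genes in their brightest probe sets. Among them RPL15, RPL22, RPL35A, RPL4 and RPS3 were lower in M1, and RPS7 was higher.

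**Figure D5:**
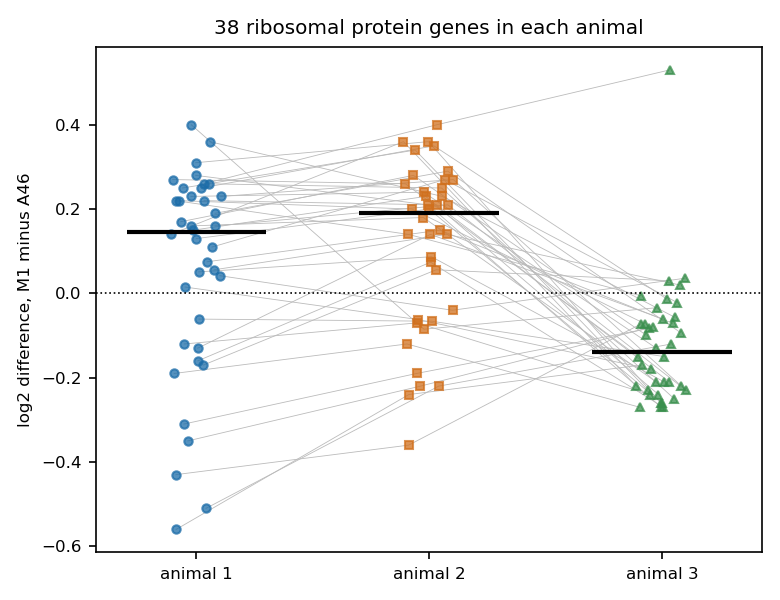
Log2 difference, M1 minus A46, of 38 ribosomal protein genes in each animal, 1 point per gene, with lines joining the same gene and a bar at the median. The medians are 0.14 in animal 1, 0.19 in animal 2 and -0.14 in animal 3, where 4 of 38 genes are above 0.

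The same actin log2 ratio was 0.91 ± 0.071 in animal 3, 1.10 ± 0.14 in animal 1 and 1.07 ± 0.052 in animal 2 (SD over n = 4 areas). Averaged over areas, the GAPDH log2 ratio did not set animal 3 apart. It was 0.94 ± 0.085 in animal 3, 0.91 ± 0.08 in animal 1 and 0.91 ± 0.036 in animal 2. By area, M1 and PMd of animal 3 had the highest GAPDH means of any animal and area, 1 and 1.02. PMv of animal 1 was close, with 0.99. The actin means of M1 and PMd of animal 3, 0.9 and 0.81, were the lowest. Left and right GAPDH ratios of animal 3 were uneven, with 1.09 and 0.9 in M1 and 0.86 and 1.17 in PMd. Animal 3 is also the only female. The part of these in the values was not tested.

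The members varied together only in part. Over the 12 means, the 703 pairs of genes had a median Pearson correlation of 0.183, from -0.893 to 0.977, and 32.6% of pairs were above 0.5. No such values for pairs of other genes are given, so whether these are high or low for this array is not shown. RPS18 (0.866), RPL23 (0.848) and RPS6 (0.836) followed the mean of the other members most closely, and RPL24 did not (-0.331). Among 10005 other genes, those most like the mean member profile were LOC708539 (0.93), LOC693820 (0.913), LOC695340 (0.881), PFDN2 (0.877), which encodes a prefoldin subunit, and CEP164 (0.862), which encodes a centriole protein. All points share the same 3 animals and the same arrays.

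Other genes of translation were counted for M1 minus A46, beside the 12.9% of all tested probe sets called. Of 60 mitochondrial ribosomal protein genes, which serve the separate ribosome of mitochondria, 15 were higher and 1 lower, with a median difference of 0.16. MRPL42 rose by 0.47 (adjusted p = 0.0028) and MRPL47 by 0.39 (adjusted p = 0.00411). Of 5 elongation factor genes, 2 were higher. They were EIF5A2 (0.38, adjusted p = 0.00816), which helps stalled ribosomes onward, and EEF1E1 (0.27, adjusted p = 0.022), a scaffold protein of the aminoacyl-tRNA synthetase complex. Of 29 initiation factor genes and 11 other genes with 5′ terminal oligopyrimidine mRNAs, 0 were called. Of 41 ribosome biogenesis genes, 1 was higher, SBDS (0.26, adjusted p = 0.0388). Of 18 genes of the mTOR and S6 kinase pathway, 2 were higher, RICTOR (0.47, adjusted p = 0.00221), a subunit of mTOR complex 2, and AKT1 (0.40, adjusted p = 0.00536). RACK1 and FAU, ribosome components whose symbols fall outside the rule, had differences of 0.18 (adjusted p = 0.132) and 0.091 (adjusted p = 0.557).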

How the data were processed

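The authors deposited 1 linear intensity per probe set and array, made with RMA (robust multi-array average) according to what is stated per the submitters' processing notes. Its version, and which arrays it normalised jointly, is not given in the sources used. RMA brings arrays normalised together to a common scale, so a shift of all transcripts together cannot be seen. The deposited values still differed in spread, with standard deviations of log2 values over tested probe sets of 1.34 to 1.46. Precision is limited by having 3 animals.

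Intensities were converted to log2. Of 52865 probe sets, 99 controls were removed, and probe sets with a mean under the median of all (5.62, intensity 49.3) were not tested. Gene symbols came from the platform annotation. No genome build is named, so no coordinates are given.

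Hemispheres were averaged to 12 means, and limma (3.58.1, R 4.3.3; lmFit, eBayes with an intensity trend) was fitted with area and animal as terms (6 residual degrees of freedom). The same 3 animals gave every area. As a check of this pairing, correlations of means with area means removed were 0.207 to 0.85 within animals (18 pairs) and -0.561 to 0.0654 between animals (36 pairs). Removing area means over 3 animals pushes values between animals below 0 where those within are positive. The range between animals is therefore no separate evidence for the pairing. Left minus right used 24 arrays, blocked on the pair of hemispheres (11 degrees of freedom), so 12 pairs from 3 animals count as independent. All tests were two-sided and every adjusted p comes from limma. The code was tested on simulated data.

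Members, gene lists and tests were chosen with earlier results of these data known. Named genes were those past the threshold with one direction in 3 animals, or else the 4 smallest p of a comparison, the 6 smallest p between animals, and a list by name. A planned naming of the brightest and dimmest members was left out because levels of different probes are not comparable. Alternatives were quantile normalisation, median centring, other intensity filters, an offset of 16, no trend, robust fitting, single hemispheres, the array spread as a covariate, no animal block and leaving out each animal. Added after seeing the data were the fits without the PMv left arrays of animals 1 and 2, and the F tests of each area minus A46 between animals with their alternatives. A contrast of animal 3 against animals 1 and 2 was also run first. It is not reported, because that split had been picked from the values themselves, and the F test over all 3 animals replaced it. Its p-values were not adjusted over the 3 areas tested.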

Additional observations from a re-analysis of the deposited data

Results flagged for a closer look

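The difference between M1 and A46 varied between the 3 animals for 5 members by limma's F test, which was added after the values had been seen, against 0.534% of all tested probe sets. None passed with arrays centred on the median or with no intensity trend, and 0 to 4 did when any 1 array was left out. The highest minus the lowest animal's log2 difference was 0.62 for RPS15, 0.58 for RPL29, 0.52 for RPLP1, 0.44 for RPL26 and 0.5 for RPL17. Other tested probe sets of these genes were not called, with 0.084 for RPS15, 0.0064 and 0.13 for RPL29, and 0.16 for RPL26. The difference between PMv and A46 varied likewise for 5 members, by 0.47 for the dimmer probe set of RPL15, 0.61 for RPL22 (MmuSTS.2436.1.S1_at), 0.61 for RPS16, 0.63 for RPL19 and 0.41 for RPS3 (MmuSTS.3788.1.S1_at). The PMv share of members, 8.93%, lies beside 10.5% of all tested probe sets, and the count was 2 without the PMv left arrays of animals 1 and 2, 1 with the spread covariate and 0 to 13 without any 1 array. For PMd minus A46 the test called 0 members. Each call rests on 2 arrays per animal and area.

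The dimmer probe set of RPL9 stood apart on 1 array. The PMv left array of animal 1 had 10.24, and the nearest of the other 5 PMv arrays had 10.52. This array also had the smallest spread of log2 values. It was 1 of 116 groups of 6 arrays examined, 0.862%. The rule used sets apart about 1 in 20 groups of independent values by chance. Hemispheres of one animal are not independent, so that rate does not carry over here.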

How the results depend on the processing

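The counts of called members depend on the settings, and the share of all tested probe sets called in the same setting follows each count. For M1 minus A46 (5 called, 12.9%) the count was 10 after quantile normalisation (16.5%), 1 with arrays centred on the median (8.15%), 2 in the left hemisphere (4.79%), 12 with the spread covariate (24.4%), 11 without the PMv left arrays of animals 1 and 2 (17.2%), and 0 to 31 when each animal was left out, the 31 without animal 3 being 22 higher and 9 lower. Over any area (1 called, 6.53%) it was 7 after quantile normalisation (9.79%), 0 in the left hemisphere (1.99%), 11 with the spread covariate (15.4%), 4 without the PMv left arrays (10%), and 0 to 34 without an animal (0.489% to 29.4%). Without the replicate block for the pairing by animal, M1 minus A46 gave 1 (4%) and any area 0 (1.09%). PMd minus A46 (0) gave 2 after quantile normalisation (3.65%), 6 with the spread covariate (9.54%) and 0 to 19 without an animal. PMv minus A46 (0) gave 1 among the brightest probe sets only (2.66%), 1 with the spread covariate (3.92%), 1 without the PMv left arrays (2.62%) and 0 to 20 without an animal. M1 minus premotor and PMd minus PMv (0 each) gave 0 to 3 without an animal, the 3 being without animal 3 (5.19% and 5.3%), and left minus right (0) gave 3 with the spread covariate (1.31%). Between animals (15, 24.3%) the count was 5 in the left hemisphere (10%) and 7 to 11 without an animal (9.16% to 16.9%).

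The F tests of each area minus A46 between animals also moved. M1 minus A46 (5) gave 16 after quantile normalisation (1.47%), 0 centred (0.178%), 2 with no intensity filter (0.193%), 0 with no trend (0.307%), 18 with the spread covariate (2.52%), 13 without the PMv left arrays (1.84%) and 0 to 4 without any 1 array. PMd minus A46 (0) gave 8 after quantile normalisation (0.944%), 11 with the covariate (1.98%), 4 without the PMv left arrays (1.11%) and 0 without any 1 array. PMv minus A46 (5) gave 14 after quantile normalisation (9.6%), 10 centred (14.3%), 1 with the covariate (0.603%), 2 without the PMv left arrays (3.5%) and 0 to 13 without any 1 array (1.35% to 28.3%). The causes were not tested.

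RPL24 passed for M1 minus A46 in 14 of 15 other settings, RPL35A and RPL15 in 10 of 15 each, and the RPL22 probe sets in 9 of 15 and 7 of 14. No called difference changed sign. Signal over background limits the 13 probe sets below the filter, and 3 animals limit every comparison.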
